A study of Mus musculus with 12 samples.

Results

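Interferon-stimulated genes were followed with age in microglia, the resident macrophages of the brain, and in whole hippocampus. The set was fixed as 39 mouse gene symbols and matched exactly to the gene names of the deposited tables. Of the 39, 37 were listed among the 29957 named genes of the microglia table and 31 among the 14663 of the hippocampus table. Ifit3b, a copy of Ifit3, and Ifi207 were listed in neither. The samples were hippocampal microglia from C57BL/6 mice aged 3 or 24 months and bulk hippocampus from C57BL/6 mice aged 6 or 18 months, with 3 libraries in each of the 4 groups. Age was the only labelled difference within a tissue, and no allele, drug or other treatment was given for any group. The labels did not say how the microglia were isolated, or whether each library of a group was a different mouse. The p-values therefore measure the spread between these libraries, which may be technical.

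Type I interferons bind the receptor pair Ifnar1 and Ifnar2, whose kinases Jak1 and Tyk2 activate transcription factors such as Stat2. A complex that includes Stat2 and Irf9 binds the interferon-stimulated response element in promoters and switches on a broad set of antiviral genes. The products include RNA binders, RNA-degrading enzymes, membrane proteins that hold back virus particles, sensors of foreign nucleic acid, and proteins such as Usp18 that switch the pathway off again. A small share of microglia with high levels of such genes is known from ageing and diseased brain.

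The response element is shown first because it is the sequence feature that many of these genes have in common. The set is defined by its response to interferon, which acts through this element. The share below is therefore a description of the set and no independent result. The promoter table (RefSeq, build GRCm38.p6) gave windows from 250 bases before to 50 bases after the gene start, and 29 of the 39 members matched it by symbol. A core of the element, GAAA then any 2 bases then GAAA on either strand, was found in 18 of these 29 members (62.1%), against 3.99% of all 27025 genes with a window of that length. The letters TTCNNNGAA, a palindrome recognised by activated Stat dimers, were found in 8 of the 29 (27.6%), against 9.55% of all genes. The windows below belong to the members with the smallest microglia p-values among those that hold the core, and run from 250 bases before to 30 bases after the start. The core is in capitals and reads TTTC, any 2 bases, TTTC where it lies on the other strand.
Trim30a: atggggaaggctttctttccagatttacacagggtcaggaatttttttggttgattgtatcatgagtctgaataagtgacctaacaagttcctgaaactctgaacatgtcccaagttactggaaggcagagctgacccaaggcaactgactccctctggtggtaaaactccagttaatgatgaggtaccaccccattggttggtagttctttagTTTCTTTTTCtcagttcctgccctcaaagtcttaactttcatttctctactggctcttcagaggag
Ifit3: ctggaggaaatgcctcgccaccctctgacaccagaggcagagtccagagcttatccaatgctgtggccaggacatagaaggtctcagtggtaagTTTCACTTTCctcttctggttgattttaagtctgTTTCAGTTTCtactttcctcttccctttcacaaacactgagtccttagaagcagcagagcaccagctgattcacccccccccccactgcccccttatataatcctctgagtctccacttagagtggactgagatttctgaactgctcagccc
Slfn8: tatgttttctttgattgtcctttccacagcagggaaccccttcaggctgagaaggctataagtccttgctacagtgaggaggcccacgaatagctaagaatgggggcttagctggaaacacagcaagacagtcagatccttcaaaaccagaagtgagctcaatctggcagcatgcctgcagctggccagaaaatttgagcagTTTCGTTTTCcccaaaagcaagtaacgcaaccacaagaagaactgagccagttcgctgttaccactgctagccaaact
Eif2ak2: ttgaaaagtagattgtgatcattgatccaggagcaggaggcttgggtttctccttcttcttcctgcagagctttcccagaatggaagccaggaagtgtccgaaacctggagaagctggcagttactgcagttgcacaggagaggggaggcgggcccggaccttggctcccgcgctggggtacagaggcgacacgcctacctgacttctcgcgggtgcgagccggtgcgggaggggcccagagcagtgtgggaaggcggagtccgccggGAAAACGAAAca

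The Trim30a window is chr7:104465164-104465443 on the minus strand, with its core 36 bases before the start. The Ifit3 window is chr19:34583279-34583558 on the plus strand and has 2 cores, 156 and 122 bases before the start. The Slfn8 window is chr11:83020781-83021060 on the minus strand, with its core 48 bases before the start. The Eif2ak2 window is chr17:78882543-78882822 on the minus strand, with its core at base 19 of the transcript. Ifih1 has its core, GAAACAGAAA, at base 33 of the transcript. Members without the core in this window include Slfn2, Oasl2, Adar and Ifit2. No match says only that these letters were not in the window.

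The microglia libraries held 8072855 to 14226478 estimated counts. Among the 7840 genes with a mean above 10 CPM (counts scaled to library size), 3 month replicate 1 lacked any count for 394. The same number was 186 for 24 month replicate 1, and the other 4 libraries ranged from 26 to 62. The 12 microglia markers, P2ry12, Tmem119 and Csf1r among them, were all detected in every microglia library. They summed to 69434 to 73701 CPM at 3 months, to 50516 and 50934 CPM in 24 month replicates 1 and 2 and to 66259 CPM in 24 month replicate 3. The 12 neutrophil markers summed to 3353.4 CPM in 24 month replicate 1, of which S100a8 gave 1289.3 CPM, and to 559.4 to 689.9 CPM elsewhere. Csf3r alone gave 553.5 to 655.8 CPM in every library, and Mmp8 was at 0 throughout. That library thus stood apart for neutrophil genes. Of 12 lymphocyte markers 6 were at 0 in all libraries, Cd3e, Cd3g and Trac among them, and the list summed to 7.73 to 69.5 CPM. The 14 endothelial and mural markers summed to 23.8 to 46.3 CPM at 3 months and to 340.0, 178.4 and 67.1 CPM in 24 month replicates 1 to 3, with Acta2 at 215.0 CPM in replicate 1. In replicate 3 that sum was nearly all Pecam1, at 66.2 CPM, and 11 of the 14 markers were at 0. The 10 astrocyte markers summed to 130.3, 239.1 and 266.9 CPM at 3 months and to 352.4, 467.6 and 338.8 CPM at 24 months, most of it Slc1a3. The astrocyte sum was thus higher in each old library than in any young one, as were Slc1a3, Aldoc and Mt3 of that list. Slc1a2, Gfap and S100b overlapped. Aqp4 was at 0 in every old library, and Gja1, Aldh1l1 and Gjb6 were above 0 only in 24 month replicate 2. The part of the astrocyte markers in the members' levels was not tested. The 12 markers of monocytes and border macrophages reached 70.7 CPM in 24 month replicate 2, with Ccr2 at 21.8 CPM, and 9.63 to 19.4 CPM elsewhere. The 6 plasmacytoid dendritic cell markers include Siglech and Bst2, which microglia also express, and had Ly6d and Klk1 at 0 throughout. Tcf4 of that list was at 191.1 and 220.5 CPM in 24 month replicates 1 and 2 and at 21.9 to 47.0 CPM elsewhere. Normalized counts per hippocampus library came to between 974372 and 1002839.

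Most tested members of the set had a higher mean in microglia of 24 than of 3 months. Ifi27l2a, Slfn8 and Ifit3 showed the largest log2 changes (4.79 ± 1.31, 3.08 ± 1.47 and 2.89 ± 1.06, SE, n = 3 each). Others, such as Adar, Bst2 and Ifi35, had a lower mean, and 0 members passed edgeR's threshold after adjustment over all genes. A larger share of responding cells and more RNA per cell cannot be told apart in RNA pooled from many cells. Levels below are CPM scaled between libraries by TMM, and changes are log2 values, 24 minus 3 months, from edgeR's quasi-likelihood test. Of the 37 listed members, 32 passed the filter on low counts. The log2 change was above 0 in 25 of the 32 (78.1%), where it was above 0 in 50.5% and below 0 in 49.5% of all 10663 tested genes. The median log2 change of the 32 was 1.30 against 0.01 over all tested genes. It was 0.38 over 38 other tested interferon-induced genes, described further below. Without the filter, which can favour genes that are high in 1 group, the median over all 37 listed members was 0.92. The lowest old library exceeded the highest young one in 10 members (31.2%), against 7.26% of all tested genes. The reverse held for 0 tested members, against 6.18% of all tested genes. The members were chosen with earlier results of these data known, so these shares describe the set and are no independent support. Dropping 24 month replicate 3 gave a median of 0.72, and dropping 3 month replicate 3 gave 0.80, fits in which Rsad2 also passed the filter. With 3 month replicate 1 and 24 month replicate 3 both left out, a setting added after seeing the data, the median was 1.14.

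At an unadjusted p under 0.05, 7 members were higher (21.9%, against 3.52% of all tested genes) and 0 were lower (2.02% of all genes). These 7 were Ifi27, Ifi27l2a, Trim30a, Slfn2, Ifit3, Oasl2 and Ifih1. Their number was 4 without 3 month replicate 3 and also 4 without 24 month replicate 2. With transcript length as an offset it was 5, since Trim30a and Oasl2 no longer passed. After Benjamini-Hochberg adjustment over all genes edgeR called 0 members and 0 genes in either direction (background 0% higher and 0% lower), the smallest adjusted p of a member being 0.619, for Ifi27. DESeq2 on the same rounded counts called 3 members higher, Ifi27l2a (adjusted p = 0.00102), Ifi27 (0.0429) and Trim30a (0.0448), and 0 lower. Over all genes DESeq2 called 1.14% higher and 0.189% lower. The authors' deposited table had Ifi27l2a (adjusted p = 9.52e-05), Ifi27 (0.0014) and Oasl2 (0.00291) higher and Rsad2 (0.0167) lower. That is 3 of the 35 members with an adjusted p there higher and 1 lower, in a deposited table with 1.54% of genes higher and 0.472% lower. Trim30a, called here by DESeq2 on counts without a length offset, was not called there (log2 change 0.22, adjusted p = 0.966).

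**Figure D1:**
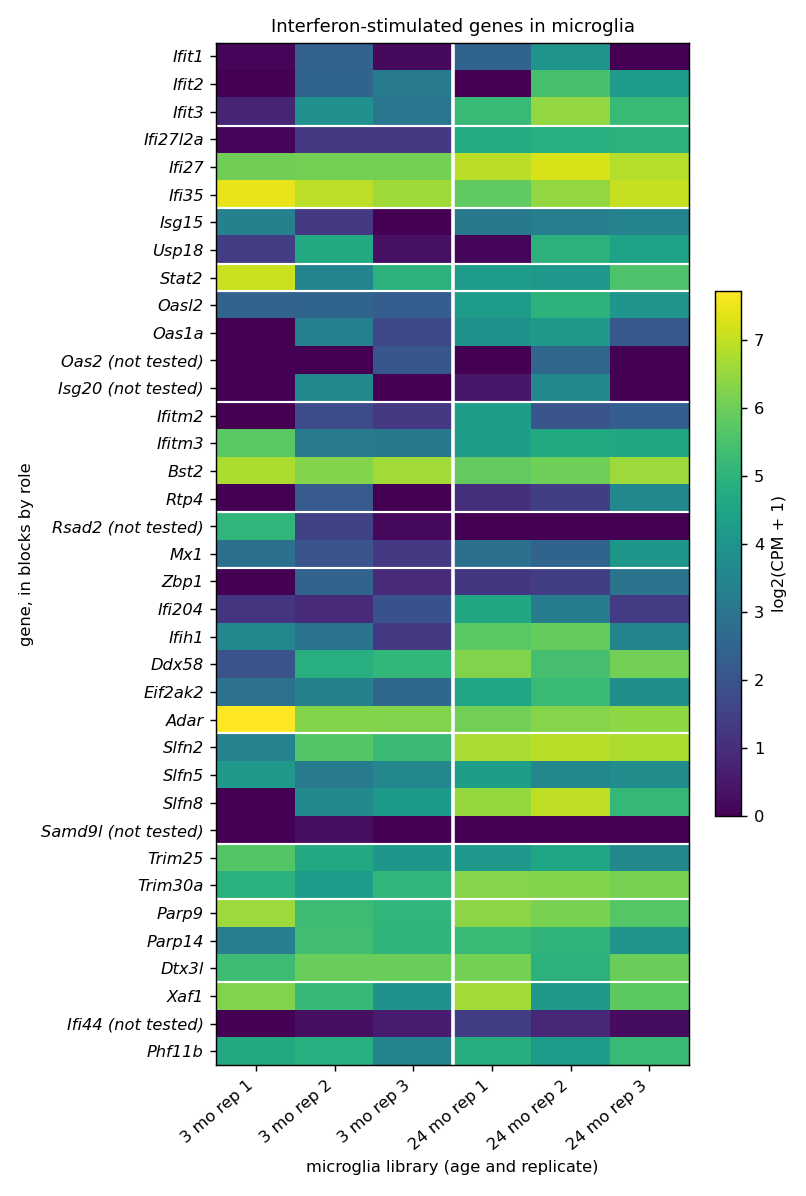
Colour gives log2(CPM + 1) of the 37 listed members (lines) in the 6 microglia libraries (columns; the white vertical line separates 3 from 24 months), in blocks by role. Ifi27l2a, Trim30a and Slfn2 are brighter in all 3 old libraries, Stat2 and Adar are brightest in 3 month replicate 1, and Rsad2 is dark in the old libraries.

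The Ifi27 family held the 2 smallest p-values of the set. Ifi27l2a encodes a small interferon-induced protein of internal membranes. It stood at 0.0746, 1.496 and 1.43 CPM in the 3 young libraries and at 25.9, 27.6 and 30.1 CPM in the 3 old ones. The groups were far apart and the old libraries close together (1.0002 ± 0.80 and 27.9 ± 2.09 CPM, SD, n = 3 each), for a log2 change of 4.79 ± 1.31 (SE). The low young levels rest on 1, 12 and 21 estimated counts. Its neighbour on chromosome 12, Ifi27, was already abundant at 3 months, with 64.5, 67.5 and 67.1 CPM, and stood at 119.8, 150.4 and 115.0 CPM at 24 months. The 2 groups did not overlap, the young libraries differed by little (66.3 ± 1.61 and 128.4 ± 19.2 CPM, SD, n = 3 each), and the log2 change of Ifi27 was 0.95 ± 0.25 (SE), unadjusted p = 0.00575. Leaving out any 1 library kept the log2 change of Ifi27 between 0.82 and 1.002. Ifi35, a leucine zipper protein that is not related in sequence, did not share this pattern. It was at 174.7, 122.1 and 96.9 CPM at 3 months and at 56.2, 87.2 and 129.9 CPM at 24 months, overlapping (log2 change -0.53 ± 0.38, SE).

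Ifit proteins have tetratricopeptide repeats and bind viral RNA ends or the translation machinery. Their genes Ifit2, Ifit3, Ifit3b and Ifit1 neighbour each other on chromosome 19. Ifit3 was at 0.746, 14.0 and 7.08 CPM at 3 months and at 36.6, 87.7 and 36.6 CPM at 24 months. Every old library was above the young range, with 24 month replicate 2 highest (log2 change 2.89 ± 1.06, SE). Reads of the copy Ifit3b, which the table did not list, could have been counted to Ifit3, so this level is uncertain. Ifit1 and Ifit2 each had old libraries both high and at 0. Ifit1 was at 0.0746, 4.36 and 0.136 CPM at 3 months and at 4.55, 15.03 and 0 CPM at 24 months (log2 change 2.105 ± 2.21, SE), and dropping 24 month replicate 2 gave 0.60, dropping 3 month replicate 2 gave 5.80. Ifit2 was at 0, 4.61 and 8.10 CPM and at 0, 43.4 and 17.9 CPM (log2 change 2.27 ± 2.26, SE). Thus 24 month replicate 2 was highest for all 3 Ifit genes, while replicate 1 had no Ifit2 and replicate 3 no Ifit1. Replicate 2 is also the library with 70.7 CPM of monocyte and border macrophage markers and the highest sum of astrocyte markers (467.6 CPM). Its sums of endothelial and mural markers (178.4 CPM) and of neuron markers (64.8 CPM) were exceeded only by 24 month replicate 1. The part of all these markers in the Ifit levels was not tested. Reads from close relatives within the Ifit, Oas, Slfn, Ifitm and Ifi200 families may have been split between them.

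Isg15 is a ubiquitin-like protein that is attached to other proteins after interferon, and Usp18 is the protease that removes it and also damps the receptor. Isg15 was at 9.26, 1.496 and 0 CPM at 3 months and at 7.62, 8.77 and 9.87 CPM at 24 months. The old libraries were alike, and the overlap came from 3 month replicate 1 alone. The log2 change of Isg15 was 1.28 ± 1.78 (SE) with all libraries and 3.56 without 3 month replicate 1. Usp18 followed another order, with 1.64, 25.4 and 0.272 CPM at 3 months and 0.106, 30.2 and 20.6 CPM at 24 months. Both ages thus held high and nearly empty libraries of Usp18 (log2 change 0.90 ± 1.94, SE). With single libraries left out its log2 change ran from 0.19 (without 24 month replicate 2) to 4.12 (without 3 month replicate 2).

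Stat2, the signal transducer of the set, went the other way in its mean. It was at 134.2, 10.1 and 30.2 CPM at 3 months and at 18.2, 16.3 and 46.4 CPM at 24 months. The high young mean came from 3 month replicate 1, and the log2 change of -1.11 ± 0.95 (SE) turned to 0.42 without that library. Rsad2, or viperin, an iron-sulphur enzyme that makes a chain-terminating nucleotide, was at 442, 15 and 2 estimated counts in the young libraries and at 0 in all 3 old ones. It did not pass the filter on low counts. Against a floor of 3 counts over the old group, Rsad2 was at least 127-fold lower at 24 months, and at least 7.46-fold lower without 3 month replicate 1. Mx1, a dynamin-like GTPase that traps viral nucleocapsids, was at 6.195, 3.12 and 1.43 CPM and at 6.25, 4.54 and 16.04 CPM. Only 24 month replicate 3 stood well above the young libraries for Mx1 (log2 change 1.32 ± 1.19, SE).

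The 2'-5' oligoadenylate synthetases make a messenger that activates RNase L when double-stranded RNA is present, and Oasl2 is a member of this family. Oasl2 was at 4.48, 4.61 and 3.95 CPM at 3 months and at 18.1, 30.9 and 15.3 CPM at 24 months. The young libraries were nearly equal and every old one lay over 3 times as high as any of them (log2 change 2.30 ± 0.92, SE, unadjusted p = 0.0389, and 0.0574 with the length offset). Oas1a overlapped, with 0, 8.98 and 2.18 CPM against 14.7, 17.0 and 3.32 CPM (log2 change 1.65 ± 1.81, SE). Oas2 and the exonuclease Isg20 did not pass the filter. Oas2 had counts in 1 library per age. Isg20 had 90 estimated counts in 3 month replicate 2, 116 in 24 month replicate 2, 4 in 24 month replicate 1 and 0 in the others.

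**Figure D2:**
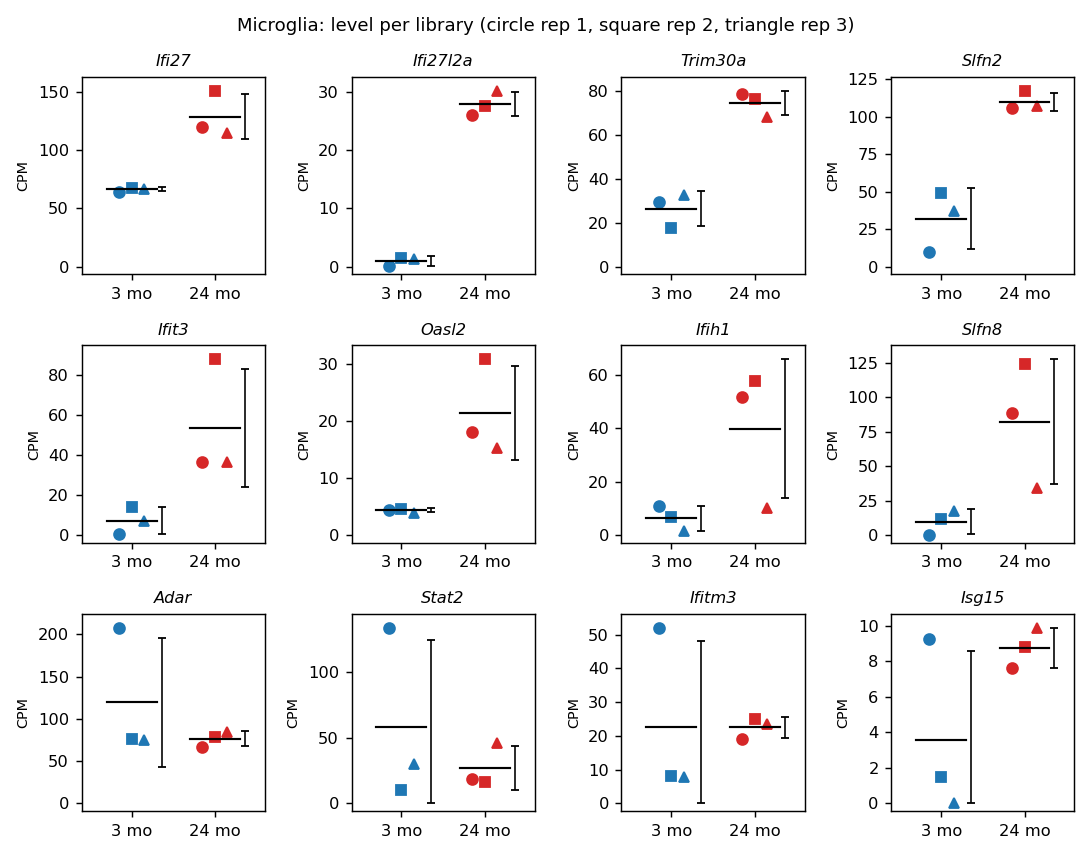
Each panel shows CPM of 1 gene in the 3 young (blue) and 3 old (red) microglia libraries; the horizontal line is the mean and the side bar 1 SD, cut at 0. The 8 genes with the smallest p-values come first; in the bottom row the circle of 3 month replicate 1 lies far above the other young libraries for Adar, Stat2, Ifitm3 and Isg15.

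Membrane proteins of the set split. Ifitm2 and Ifitm3, neighbours on chromosome 7, encode proteins that hinder the fusion of virus with cell membranes. Ifitm3 was at 52.1, 8.10 and 7.69 CPM at 3 months and at 19.2, 24.9 and 23.4 CPM at 24 months. The old libraries lay above 2 of the young ones and below 3 month replicate 1, so that the log2 change was -0.01 ± 0.95 (SE), and 1.51 without that library. Ifitm2 was at 0, 2.49 and 1.43 CPM and at 18.7, 3.13 and 3.89 CPM. All old libraries were above the young ones, but 24 month replicate 1 stood apart (log2 change 2.71 ± 1.79, SE, and 1.42 without it). That library is also the one with 3353.4 CPM of neutrophil markers. It had the highest sums of endothelial and mural markers (340.0 CPM) and of neuron markers (133.7 CPM) as well. The part of all these markers in the Ifitm2 level was not tested. Bst2, or tetherin, which ties budding virus to the cell surface, overlapped at 106.7, 75.9 and 98.6 CPM against 56.6, 63.5 and 94.0 CPM (log2 change -0.39 ± 0.32, SE). Rtp4, a receptor transporter, was at 0, 3.62 and 0 CPM and at 1.06, 1.71 and 11.2 CPM, high in 24 month replicate 3 only.

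The 5 tested sensors of nucleic acid had a higher mean at 24 months, and the RNA editor Adar, grouped with them, a lower one. Ifih1 (MDA5) and Ddx58 (RIG-I) are helicases that detect viral RNA in the cytosol. Ifih1 was at 10.9, 6.73 and 1.498 CPM at 3 months and at 51.8, 57.9 and 10.2 CPM at 24 months. Old replicates 1 and 2 were far above the young libraries and replicate 3 within their range (log2 change 2.65 ± 1.06, SE, unadjusted p = 0.0389). Ddx58 was at 2.91, 27.8 and 33.7 CPM and at 74.4, 41.9 and 66.1 CPM, without overlap (log2 change 1.501 ± 0.84, SE, and 0.98 without 3 month replicate 1). Eif2ak2 (PKR), a kinase that stops translation on binding double-stranded RNA, was at 6.35, 9.35 and 4.97 CPM and at 21.9, 35.8 and 13.3 CPM. Its groups did not overlap either, with a log2 change of 1.78 ± 0.90 (SE). Ifi204, a sensor of DNA, was at 1.27, 0.873 and 2.86 CPM and at 23.6, 8.37 and 1.52 CPM, with 24 month replicate 3 inside the young range (log2 change 2.73 ± 1.40, SE). Zbp1, a sensor of left-handed nucleic acid that can start necroptosis, was low throughout, with 0, 4.49 and 0.885 CPM against 1.38, 1.71 and 6.84 CPM (log2 change 0.89 ± 1.71, SE). Adar, which edits adenosine to inosine and so keeps the cell's own RNA from the sensors, had a lower mean. It was at 208.0, 76.3 and 74.4 CPM at 3 months and at 66.6, 79.0 and 84.1 CPM at 24 months. Apart from 3 month replicate 1 its 5 libraries lay close together, and the log2 change of -0.64 ± 0.44 (SE) became 0.02 without that library.

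Schlafen genes lie together on chromosome 11 and encode proteins that restrain growth or cut transfer RNA. Slfn2 was at 9.63, 49.4 and 37.2 CPM at 3 months and at 105.6, 117.0 and 106.8 CPM at 24 months. Every old library was more than double the highest young one (log2 change 1.78 ± 0.57, SE, unadjusted p = 0.0156). Slfn8 was at 0, 11.7 and 17.4 CPM and at 88.4, 124.2 and 34.4 CPM, again without overlap, with 24 month replicate 3 lowest of the old (log2 change 3.08 ± 1.47, SE). Their neighbour Slfn5 had overlapping groups of 11.95 ± 4.44 and 14.1 ± 4.22 CPM (SD, n = 3 each). Samd9l, an antiviral factor, had 2 estimated counts in 1 young library and 0 elsewhere.

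Trim30a, a ubiquitin ligase that restrains Toll-like receptor signalling, was at 29.3, 17.6 and 32.5 CPM at 3 months and at 78.7, 76.2 and 68.2 CPM at 24 months (log2 change 1.49 ± 0.42, SE, unadjusted p = 0.00816). The groups did not overlap in CPM, which counts reads whatever the length of the transcripts. The authors' average transcript length for Trim30a was 860, 2598 and 2962 bases in the young libraries and 3636, 3628 and 3534 bases in the old ones. In the authors' TPM values, which divide by length, Trim30a had 46.3, 9.16 and 16.1 in the young libraries against 28.1, 29.0 and 27.2 in the old ones. The groups overlapped in TPM through 3 month replicate 1, the library with the short average length. With length as an offset in edgeR the log2 change of Trim30a was 0.25 ± 0.63 (SE). Of the 32 tested members, 3 moved by over 0.4 on the log2 scale with that offset, Trim30a, Ddx58 (from 1.501 to 1.03) and Zbp1 (from 0.89 to 1.31), and 23 moved by under 0.1.

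Trim25, the ligase that activates RIG-I, was at 49.0, 24.2 and 15.9 CPM and at 16.2, 22.1 and 11.5 CPM (log2 change -0.84 ± 0.76, SE). Parp9 and Dtx3l, which act as a pair, and Parp14 neighbour each other on chromosome 16 and take part in ADP-ribosylation. The log2 changes were 0.28 ± 0.50 for Parp9, -0.0034 ± 0.46 for Dtx3l and 0.04 ± 0.78 for Parp14 (SE), each smaller than its error. Parp9 was highest in 3 month replicate 1, at 95.2 CPM. Xaf1, a protein that promotes cell death, and Phf11b also had overlapping groups (log2 changes 0.43 ± 0.79 and 0.38 ± 0.73, SE). Ifi44 was under 2 CPM in every library and not tested.

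Levels can be compared between genes only per transcript length. In the authors' TPM, Bst2 (194), Ifi35 (157) and Ifi27 (122) had the highest means at 3 months. At 24 months the order was Ifi27 (229), Bst2 (150), Ifi27l2a (117) and Ifi35 (108). Over all 6 libraries Isg15 averaged 14.7 TPM, Stat2 13.7, Usp18 11.02, Oasl2 9.85, Mx1 3.10, Ifit1 2.18 and Oas2 0.508. Ifi27l2a had averaged 4.22 TPM at 3 months. Summed over the 37 members, CPM was 1163.7, 808.9 and 713.7 at 3 months and 1262.5, 1371.1 and 1206.9 at 24 months. The sum therefore separated the ages only narrowly from 3 month replicate 1.

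**Figure D3:**
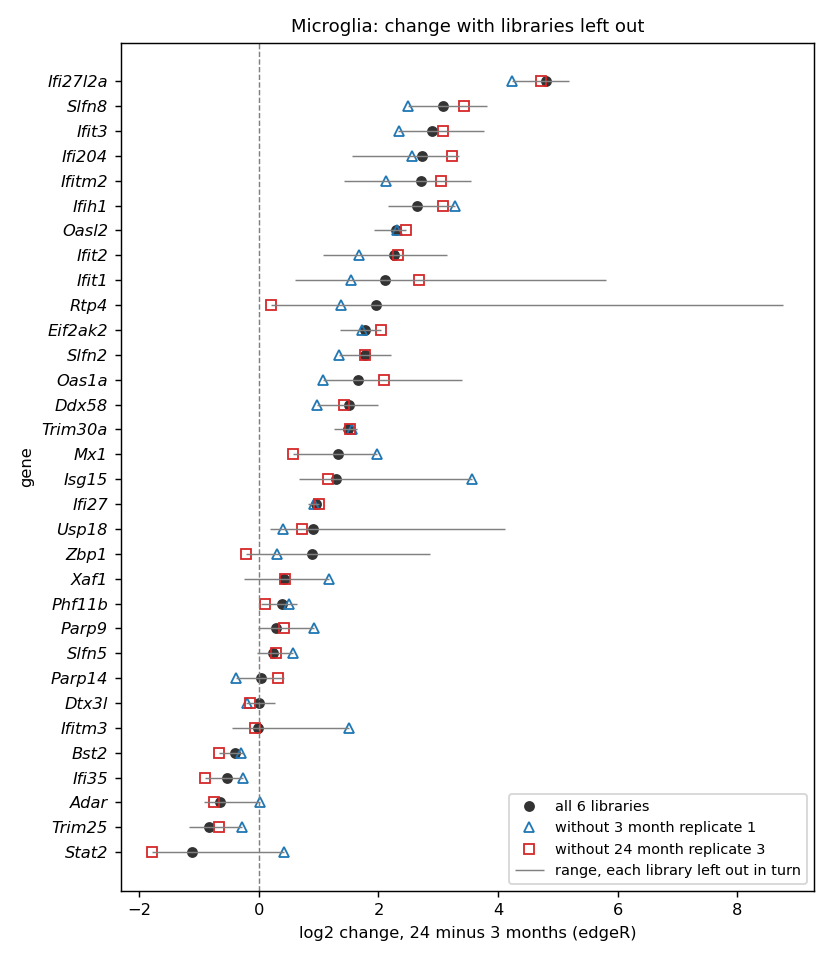
Log2 changes of the 32 tested members in microglia with all 6 libraries (black), without 3 month replicate 1 (blue) and without 24 month replicate 3 (red); grey lines span the values with each library left out in turn. Stat2, Adar and Ifitm3 cross from below to above 0 without 3 month replicate 1, while Ifi27, Oasl2 and Slfn2 stay above 0.

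The libraries of a group thus differed in which members they held. Of the 32 tested members, 3 month replicate 1 had the highest value of all libraries for 7 and the lowest for 12, and was at 0 for 6 (Ifit2, Oas1a, Ifitm2, Rtp4, Zbp1 and Slfn8). No member of the set was highest in 3 month replicate 3 (0 of 32). Of the old libraries, replicates 1 to 3 lay above all young libraries for 18, 16 and 17 members. These counts per library were not made over all genes, so they do not set the members apart. Over all genes, 3 month replicate 1 lacked any count for 394 of the 7840 with a mean above 10 CPM. Ifih1, Slfn8, Oas1a and Ifi204 were lower in 24 month replicate 3 than in the other old libraries, and Mx1, Rtp4, Zbp1 and Stat2 were higher there. Replicates 1 and 2 are the old libraries with the lower sums of microglia markers, and the part of that difference in these members was not tested.

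Among the pathway's further genes, the 5 tested receptor chains had lower means and the kinase Jak1 a higher one (304.0 and 432.0 CPM, log2 change 0.51 ± 0.29, SE). Of 15 ligands, receptors, kinases and other signalling genes, 8 were tested, and 2 had a higher and 6 a lower mean at 24 months (median log2 change -0.47). The receptor chains Ifnar1 and Ifnar2 had log2 changes of -0.29 ± 0.36 and -0.48 ± 0.36 (SE), and Irf9 of -0.48 ± 0.41. Il10rb, a chain shared with the interferon lambda receptor, was at 432.0, 489.1 and 307.5 CPM at 3 months and at 211.5, 254.9 and 340.1 CPM at 24 months. It was 1 of the 2 pathway genes with a lower mean at an unadjusted p under 0.05 (log2 change -0.61 ± 0.26, SE). The pathway lists held 8, 16, 8 and 38 tested genes. At that p, 2.02% of all tested genes were lower, a similar share. The transcripts of Ifna2, Ifna4 and Ifng were at 0 in all 6 libraries, and Ifnb1 was at 1.61 CPM in 24 month replicate 2 and at 0 in the rest. Among 16 tested genes of nucleic acid sensing 9 had a higher mean (median 0.07). Tlr9, a DNA sensor of endosomes, was the other with an unadjusted p under 0.05, at 84.7, 82.8 and 36.4 CPM at 3 months and 17.7, 25.7 and 37.3 CPM at 24 months (log2 change -1.34 ± 0.53, SE). Tmem173 (STING) and Mb21d1 (cGAS), which take part in the response to DNA in the cytosol, had log2 changes of -0.16 ± 0.38 and -0.54 ± 0.99 (SE).

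Negative regulators and other interferon-induced genes gave mixed values. Of 8 tested negative regulators 7 had a higher mean (median 0.71), with Socs3 at 1.49, 29.1 and 36.8 CPM at 3 months and 591.0, 713.6 and 17.8 CPM at 24 months. Only replicates 1 and 2 of the old libraries were high for Socs3. Socs1, which blocks the receptor kinases, was at 0, 1.87 and 2.18 CPM and at 10.1, 13.7 and 3.89 CPM, without overlap (log2 change 2.77 ± 1.71, SE). Of 59 other interferon-induced genes 38 were tested, and 25 had a higher and 13 a lower mean (median 0.38). At an unadjusted p under 0.05, 3 were higher (Helz2, Lgals3bp and Irgm1) and 0 lower, against 3.52% and 2.02% of all tested genes. Without overlap, 7 of the 38 were higher and 2 lower, against 7.26% and 6.18% of all tested genes. The 2 lower ones were Parp12 (35.1 and 5.86 CPM on average, log2 change -2.58 ± 1.27, SE) and Tor1aip1 (157.3 and 98.0 CPM, -0.68 ± 0.31). Helz2, a helicase, had 0 CPM in each of the 3 young libraries and 15.6, 11.1 and 5.51 CPM in the old ones, or at least 127-fold higher if the young group is set to its floor of 3 counts. Lgals3bp, a secreted scavenger receptor protein, was at 199.5 and 369.3 CPM on average, and Irgm1, a GTPase of immunity, at 63.5 and 135.7 CPM, both without overlap (log2 changes 0.89 ± 0.23 and 1.09 ± 0.32, SE). DESeq2 called 2 of these, Helz2 and Lgals3bp. With 0 counts in the young group, Helz2 passed the filter on low counts only through the old libraries. Its p-value and calls are thus not independent of that filter, which Rsad2, with counts only in young libraries, did not pass.

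In whole hippocampus the set showed no common direction between 6 and 18 months. Values there are the authors' normalized counts, and log2 changes, 18 minus 6 months, are of the normalized count plus 1, from limma. Here too, fewer cells of a type and less RNA per cell cannot be told apart. Of the 31 listed members, 25 passed the filter on low values, and 13 (52%) had a log2 change above 0, where 47.2% of all 13491 tested genes were above and 52.8% below 0. The log2 change of Bst2 was below 0 (-0.30 ± 1.07, SE) although its mean was higher at 18 months (6.42 and 9.12 normalized counts). The median log2 change was 0.19, against -0.04 over all tested genes. In 0 members did the groups not overlap, in either direction, against 5.03% of all tested genes higher and 5.93% lower. At an unadjusted p under 0.05 there were 0 members higher and 0 lower (2.13% and 3.24% of all genes), and limma called 0 of them after adjustment (background 0% higher and 0% lower). The authors' deposited table likewise had 0 of the 18 members with an adjusted p past 0.05 in either direction (smallest adjusted p 0.694), with 0.118% of its genes higher and 0.186% lower.

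**Figure D4:**
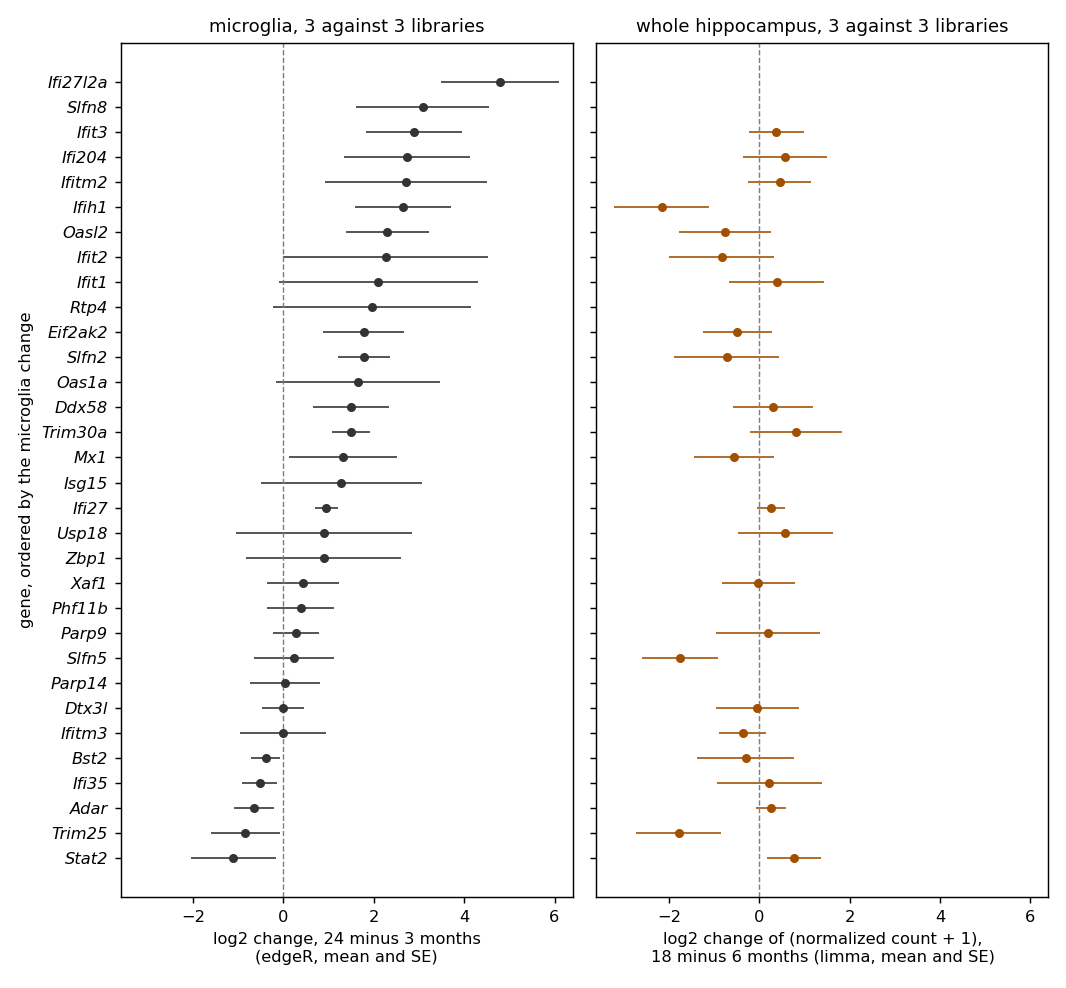
Log2 changes with their standard errors for the 32 members tested in microglia (left, 24 minus 3 months) and, in the same order, for those also tested in whole hippocampus (right, 18 minus 6 months; blank where not tested). Microglia changes reach from -1.11 (Stat2) to 4.79 (Ifi27l2a), while the hippocampus values lie on both sides of 0, from -2.16 (Ifih1) to 0.81 (Trim30a).

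The levels were low, so that single libraries set many means. Ifi27 and Adar had the most normalized counts, which are not divided by transcript length and so do not rank the genes. Ifi27 was at 50.9, 66.3 and 62.7 normalized counts at 6 months and at 51.8, 95.2 and 73.2 at 18 months (log2 change 0.25 ± 0.31, SE). Adar was at 53.0, 79.5 and 69.9 and at 123.8, 82.3 and 50.3 (log2 change 0.26 ± 0.34, SE). Both genes had overlapping groups. Stat2 was at 9.85, 8.96 and 23.4 normalized counts at 6 months and at 21.5, 20.8 and 25.6 at 18 months, with 6 month replicate 3 inside the old range (log2 change 0.77 ± 0.61, SE). Ifit3 was at 11.02, 18.2 and 14.1 and at 19.7, 28.2 and 11.7 (log2 change 0.38 ± 0.61, SE). Ifit1 stayed under 12 normalized counts and Bst2 under 18 in every library, each with 1 library of 18 months at 0.

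Lower means were seen for Slfn5, Ifih1 and Trim25, the members with the smallest p-values. Slfn5 was at 21.1, 15.7 and 7.37 normalized counts at 6 months and at 1.75, 2.41 and 7.56 at 18 months, the highest old value just above the lowest young one (log2 change -1.76 ± 0.85, SE, unadjusted p = 0.0575). Ifih1 was at 7.39, 13.7 and 7.03 at 6 months. At 18 months it was listed at 0 in 2 libraries and at 10.2 in replicate 3 (log2 change -2.16 ± 1.05, SE, unadjusted p = 0.0591). Its mean normalized counts were 9.38 and 3.40, and the authors' deposited table has a log2 change of -1.27, a smaller difference than that of the mean logs. Trim25 was at 8.80, 1.79 and 10.1 and at 0, 1.23 and 2.32 (log2 change -1.78 ± 0.95, SE). Ifih1 thus had a higher mean at the older age in microglia and a lower one in the hippocampus. The ages differ between the tissues and the tables were normalized separately, so the difference between them was not tested.

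Ifitm3 was at 20.2, 32.5 and 25.9 normalized counts at 6 months and at 12.5, 26.7 and 22.8 at 18 months (log2 change -0.37 ± 0.52, SE). Samd9l (0.98 ± 1.04), Trim30a (0.81 ± 1.03), Oasl2 (-0.76 ± 1.01) and Ifit2 (-0.83 ± 1.16) each had log2 changes within their SE and at least 1 library at 0. Isg15 was listed at 0, 0 and 1.38 normalized counts at 6 months and at 0, 3.23 and 0.818 at 18 months and was not tested. Zbp1 and Parp14 were listed at 0 in all 3 libraries of 18 months. Ifi27l2a, Oas2, Isg20, Rsad2, Slfn8 and Phf11b were not in the hippocampus table used here.

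**Figure D5:**
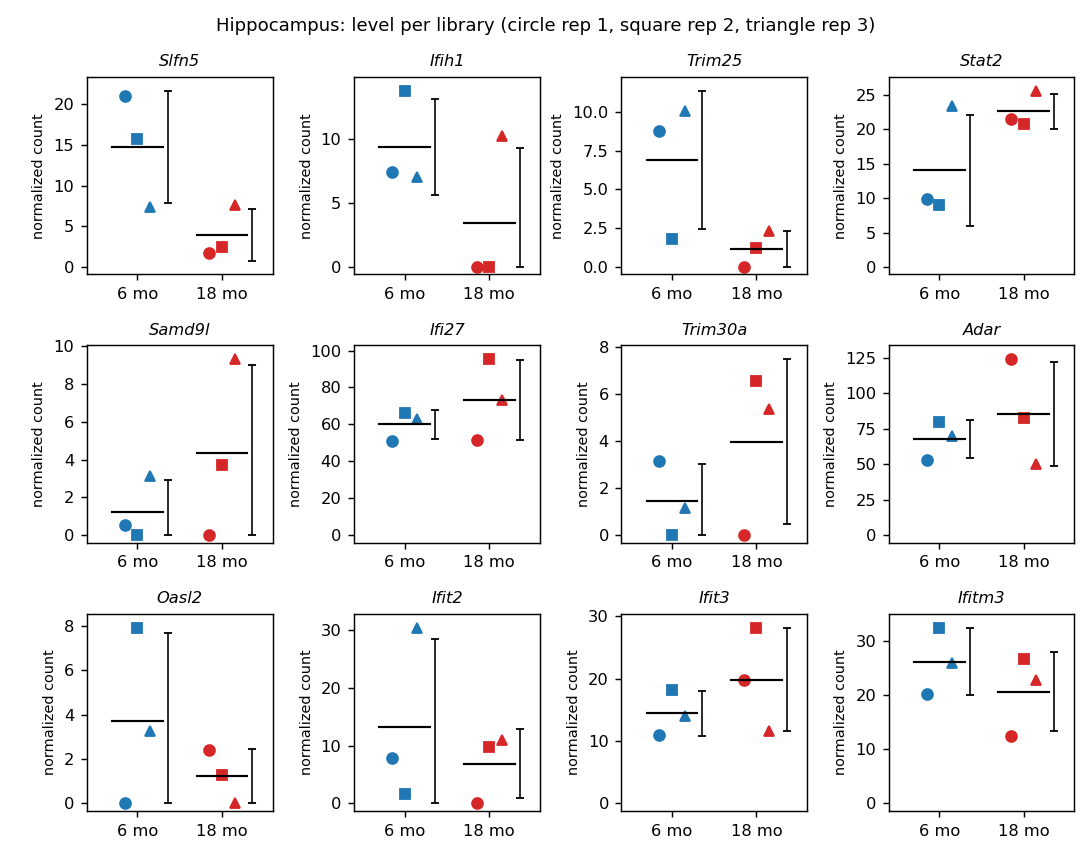
Normalized counts of 12 members in the 3 libraries of 6 months (blue) and the 3 of 18 months (red) of whole hippocampus; the horizontal line is the mean and the side bar 1 SD, cut at 0. In each panel the groups overlap, and 18 month replicate 1 is at 0 for Ifih1, Trim25, Samd9l, Trim30a and Ifit2.

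Of the 25 tested members, 10 were at 0 in 18 month replicate 1, the library with the fewest genes above 0. It had 12006 named genes above 0, against 12676 to 13821 in the other libraries. In 18 month replicate 2, 8 members had their highest value, among them Ifi27, Ifit3, Ifitm2 and Bst2. How often that library was highest over all genes was not counted. The choroid plexus and ependymal markers, led by Ttr, summed to 12839 normalized counts in that replicate 2, to 4537 and 687 in the other libraries of 18 months and to 377, 9059 and 2940 at 6 months. Their part in the members' values was not tested. The 12 microglia markers summed to 540 to 665 normalized counts at 6 months and 668 to 747 at 18 months. Neutrophil and lymphocyte markers were near 0, with sums of at most 10.1 and 3.49 normalized counts. Of the other pathway genes in the hippocampus, Ifngr2, a chain of the interferon gamma receptor, was at 63.1, 96.6 and 77.0 normalized counts at 6 months and at 128.8, 182.0 and 90.6 at 18 months (log2 change 0.72 ± 0.29, SE). Ifngr2 and, with a lower mean, the adaptor Ticam1 (log2 change -2.18 ± 0.998, SE) were the 2 of 66 tested pathway genes with an unadjusted p under 0.05, where 2.13% of all tested genes were higher and 3.24% lower at that p. Irf9 (-0.84 ± 0.78), Ifnar1 (-0.34 ± 0.53) and Ifnar2 (-0.19 ± 0.52) had lower means with overlapping groups.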

How the data were processed

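Per the labels' protocols, libraries were made from 5 ng of Trizol-isolated RNA by oligo-dT priming, template switching, 12 PCR cycles and tagmentation. No molecular identifiers were named, so floors cover counting error only. Per the submitters' processing notes, kallisto, DESeq and DESeq2 were used, with the builds GRCm39 and mm10, versions and roles not given in the sources used here. The authors deposited estimated counts, TPM and average transcript lengths per gene for microglia, per the file headers. For each tissue the authors deposited normalized counts (a scaled signal), a log2 fold change, a Wald score, and p-values. The hippocampus log2 values are 6 over 18 months in the deposited table and were turned here. Hippocampus depth is unknown: at best 44.0% to 58.4% of its low values were whole multiples of 1 step (tolerance 0.1), so no reads were recovered.

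Estimated counts were rounded and tested with edgeR 4.0.16 (R 4.3.3; quasi-likelihood, TMM, filterByExpr, 10663 genes). Hippocampus values were tested with limma 3.58.1 with a mean trend on log2(normalized count + 1), a pseudocount of 1, for 13491 genes with at least 1 in at least 3 samples. The pseudocount can understate changes of low genes, and with libraries at 0 the change of mean logs can exceed or oppose that of mean counts. All tests are two-sided, with Benjamini-Hochberg adjustment across every tested gene and a threshold of 0.05. DESeq2 1.42.0 was an alternative. The fits were tested on simulated data. Every sample column was used (0 left over). The entry without a gene name held 0.0546% to 0.0771% of the microglia counts and 0.0233% to 0.0335% of the hippocampus signal and was left out. The members and gene lists were chosen with earlier results of these data known. Values per library are printed for the 16 members with the smallest microglia p, the 10 with the smallest hippocampus p and a fixed set of well-known members. Any other gene with values was chosen after they were seen.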

Additional observations from a re-analysis of the deposited data

How the results depend on the processing

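Of the alternatives, DESeq2 moved the microglia counts most, to 120 genes higher and 20 lower over all genes and 3 members higher, where edgeR called 0. Why the tools differ was not tested. With 24 month replicate 3 left out, edgeR called 50 genes higher and 5 lower. Leaving out each library in turn gave 0 to 50 genes higher and 0 to 5 lower, and 0 members in either direction. The members higher at an unadjusted p under 0.05 ranged from 4 (without 3 month replicate 3 or without 24 month replicate 2) to 8, those lower from 0 to 1 (Rsad2, which passed the filter in some of these fits). Without 3 month replicate 1 and 24 month replicate 3 together, a setting chosen after seeing the data, 54 genes were higher and 0 lower. Without a filter on low counts 1 member, Rsad2, was lower at an unadjusted p under 0.05. In the hippocampus a pseudocount of 5 gave 1 member lower at an unadjusted p under 0.05. Leaving out each library there gave 0 to 2 such members and 0 to 1 gene called higher over all genes, and the members' median ran from -0.26 to 0.22.

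Some members turned sign. Without 3 month replicate 1 the log2 changes were 0.019 for Adar, 0.42 for Stat2 and 1.51 for Ifitm3, and 0.12, 0.64 and 1.62 once replicate 1 of each age was dropped. Over all single libraries left out these ranged from -0.91 to 0.019, from -1.78 to 0.42 and from -0.45 to 1.51. Ifitm3 was at 0.063 with a length offset, at 1.47 without 3 month replicate 1 and 24 month replicate 3, and at 0.67 with the replicate number as a block. Zbp1 ran from -0.21 to 2.86 with single libraries left out and was at -0.80 in the setting chosen after seeing the data. In the hippocampus Bst2 was at 0.071 with a pseudocount of 5 and ran from -1.15 to 0.97, Ifit1 from -0.33 to 1.499, Ifit2 from -1.72 to 0.34 and Adar from -0.048 to 0.59 with single libraries left out. Where no library was left out, the cause was not tested. Over all tested genes, same-numbered libraries hardly deviated together (correlations -0.027 to 0.065). Whether they share more than a number, such as a batch, was not tested further. With the replicate block 6 members in microglia and 0 in hippocampus were higher at an unadjusted p under 0.05, and 0 genes were called in either tissue. Depth limits members with few counts, such as Oas2, Samd9l and Ifi44.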
